A study of Homo sapiens with 25 samples.

Results

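The chromatin bound by PML in MDA-MB-231 cells was sorted by how much of it also lay in heterochromatin marked by trimethylation of histone H3 lysine 9 (H3K9me3). The PML list held 420 broad domains, and each was classed by the share of its length inside the 430 H3K9me3 domains of control cells. A share of 0 gave 153 domains (no H3K9me3), a share above 0 and below 50% gave 37 domains (partly covered, the middle class), and a share of 50% or more gave 230 domains (the high class). MDA-MB-231 is a human breast cancer line of basal, mesenchymal type. The study profiled it by chromatin immunoprecipitation and sequencing, after fixation with disuccinimidyl glutarate and formaldehyde, in control cells and in cells in which PML was silenced by a lentiviral short hairpin RNA (the sources used here do not say which construct the control cells received). The lists used came from 3 libraries of PML, whose titles name no condition, and from 2 libraries each of H3K9me3, lamin B1 (LMNB1), H3K4me3 and H3K27ac in control cells. The H3K9me3 and LMNB1 lists of PML knockdown cells, from 2 libraries each, served for 1 comparison and 1 alternative. All samples were of 1 cell line.

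PML is the scaffold of PML nuclear bodies, spherical assemblies of the nucleoplasm that also make contact with chromatin. H3K9me3 is laid down by SUV39H and SETDB1 methyltransferases and bound by HP1 proteins; it marks constitutive heterochromatin and clusters of silent or repeat-like genes, among them KRAB zinc finger genes. LMNB1 belongs to the nuclear lamina, the protein mesh under the nuclear envelope that gene-poor, AT-rich chromatin touches in broad lamina-associated domains. H3K4me3 marks active or poised promoters, above all those rich in CpG dinucleotides, and H3K27ac marks active promoters and enhancers.

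The promoters below are examples that differ in CpG content and in H3K9me3. CENPW, BBS10, SVIP and ZNF317 were picked for H3K4me3 folds among the highest of their class, and GRM7, OR10T2 and TAS2R16 as first members of families. Such picked promoters do not show how common the mark is. Each is the 250 bases before the start of the gene's Ensembl canonical transcript, read from hg38, 5′ to 3′ on the gene's strand, in a window that holds no annotated exon; capitals mark CG dinucleotides. The first is the CpG-rich promoter of CENPW, a kinetochore protein, in a domain without H3K9me3, and the second that of BBS10, a chaperonin-like protein, outside H3K9me3 in a middle domain. SVIP, an inhibitor of endoplasmic reticulum-associated degradation, and ZNF317, a zinc finger gene, start inside H3K9me3 in high-class domains and nevertheless carried H3K4me3. GRM7, a metabotropic glutamate receptor, starts inside H3K9me3 and carried no H3K4me3 peak in spite of its CpG dinucleotides. OR10T2, an olfactory receptor (high class), and TAS2R16, a bitter taste receptor (no H3K9me3), are CpG-poor and carried no peak.
CENPW, chr6:126339865-126340114, plus strand: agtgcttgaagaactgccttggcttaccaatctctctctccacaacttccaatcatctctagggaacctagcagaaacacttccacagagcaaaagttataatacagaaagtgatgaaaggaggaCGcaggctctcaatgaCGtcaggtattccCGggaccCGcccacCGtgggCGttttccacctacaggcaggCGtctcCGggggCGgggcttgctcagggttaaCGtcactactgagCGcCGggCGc
BBS10, chr12:76348416-76348665, minus strand: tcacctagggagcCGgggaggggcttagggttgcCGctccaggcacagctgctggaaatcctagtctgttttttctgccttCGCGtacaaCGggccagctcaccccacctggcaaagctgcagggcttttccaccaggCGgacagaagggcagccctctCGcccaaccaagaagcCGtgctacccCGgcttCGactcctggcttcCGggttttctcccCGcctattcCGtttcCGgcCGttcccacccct
SVIP, chr11:22829802-22830051, minus strand: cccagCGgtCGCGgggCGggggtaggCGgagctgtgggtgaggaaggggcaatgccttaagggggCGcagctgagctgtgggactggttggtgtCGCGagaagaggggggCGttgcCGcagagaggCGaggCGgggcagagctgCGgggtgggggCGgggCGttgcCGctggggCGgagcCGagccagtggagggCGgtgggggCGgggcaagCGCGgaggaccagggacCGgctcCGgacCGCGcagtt
ZNF317, chr19:9140147-9140396, plus strand: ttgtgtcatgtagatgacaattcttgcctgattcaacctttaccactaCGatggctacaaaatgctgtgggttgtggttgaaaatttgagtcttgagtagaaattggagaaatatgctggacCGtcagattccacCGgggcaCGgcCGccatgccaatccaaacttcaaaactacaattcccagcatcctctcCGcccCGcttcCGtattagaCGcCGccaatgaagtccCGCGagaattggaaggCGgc
GRM7, chr3:6860865-6861114, plus strand: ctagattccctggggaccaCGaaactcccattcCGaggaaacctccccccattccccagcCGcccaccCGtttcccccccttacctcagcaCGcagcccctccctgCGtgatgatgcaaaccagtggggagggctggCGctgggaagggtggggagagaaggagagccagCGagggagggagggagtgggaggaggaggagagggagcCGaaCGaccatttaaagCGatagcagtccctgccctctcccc
OR10T2, chr1:158399467-158399716, minus strand: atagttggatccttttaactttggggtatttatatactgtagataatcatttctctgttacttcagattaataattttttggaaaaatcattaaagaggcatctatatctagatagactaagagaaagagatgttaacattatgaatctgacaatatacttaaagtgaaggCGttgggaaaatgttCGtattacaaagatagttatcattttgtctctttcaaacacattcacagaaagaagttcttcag
TAS2R16, chr7:122995701-122995950, minus strand: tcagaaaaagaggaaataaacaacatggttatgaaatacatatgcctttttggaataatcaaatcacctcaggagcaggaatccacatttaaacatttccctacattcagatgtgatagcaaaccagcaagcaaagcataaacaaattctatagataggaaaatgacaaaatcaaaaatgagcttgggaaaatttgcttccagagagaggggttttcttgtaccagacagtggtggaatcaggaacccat
The 250 bases held 13, 15, 26, 13 and 11 CG dinucleotides at CENPW, BBS10, SVIP, ZNF317 and GRM7, and 2 and 0 at OR10T2 and TAS2R16. The H3K4me3 fold enrichment was 54.2 at CENPW, 76.1 at BBS10, 63.1 at SVIP and 55.3 at ZNF317. The annotated loci of SVIP and GRM7 extend upstream of these canonical starts.

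Each target and condition had 1 list, with no value per library, so no difference below has a replicate check and no test across samples could be made. The spread given instead is that over chromosomes, or an exact (Clopper-Pearson) 95% interval for a share of promoters; genes of a cluster are not independent, and such intervals cover counting error over genes only. Read depth is unknown. Absence from a list means only that the signal did not reach the threshold set by the authors. Of 7 markers of mesenchymal basal breast lines, 7 had a promoter peak of both H3K4me3 and H3K27ac. Of 9 luminal markers 6 had H3K4me3 and 2 H3K27ac, and of 9 leukocyte, endothelial and stromal markers 1 had H3K4me3 (CD14). Over all coding promoters the shares were 61.8% for H3K4me3 and 50.8% for H3K27ac, so H3K4me3 did not set the luminal markers apart. Such short lists go with the label of the line but do not test it. PML and LMNB1 both started outside PML domains and had H3K4me3 folds of 21.9 and 21.6. The domain scores and peak folds are the authors' own values.

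By number, PML domains tended to lie either wholly outside or almost wholly inside H3K9me3. This describes the share that set the classes and is no separate result. Of the 230 high-class domains, 114 were covered to 100% and the median share was 99.9%, whereas the 37 middle domains had a median share of 26.8%. By number the no-H3K9me3, middle and high classes made up 36.4%, 8.81% and 54.8% of PML domains. By length they made up 32.7%, 23.4% and 43.8%, which came to 317.6, 227.2 and 425.4 Mb. Within the high class the 114 wholly covered domains held 125.8 Mb and the other 116 domains 299.6 Mb. The middle class was small in number and large in length because its domains were long, with a median of 4644 kb (quartiles 3096 to 6768). Domains without H3K9me3 and high-class domains had similar medians of 954 kb (576 to 2268) and 972 kb (567 to 2158). A long domain has more room for a partial overlap, so this length difference is tied to the rule itself. The H3K9me3 cover was mostly 1 unbroken stretch, in 28 of 37 middle and 204 of 230 high-class domains. It ran past both ends of the PML domain in 127 high-class domains and past 1 end in 84. In the middle class it ran past 1 end in 20 domains, past both in 1 and past none in 16. Where it crossed an end, H3K9me3 went on for a median of 276 kb beyond the PML border in the high class and 283 kb in the middle class.

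**Figure D1:**
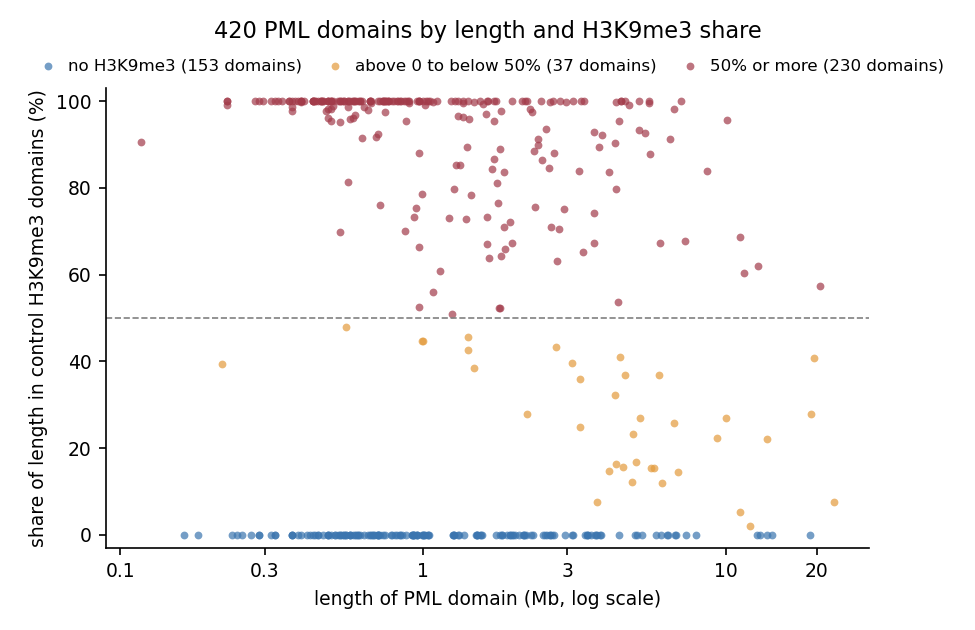
Each point is 1 of the 420 PML domains, by its length (Mb, log scale) and the share of its length in control H3K9me3 domains (%), coloured by class; the dashed line is the limit of 50%. Points crowd at 0 and at 100%, and the partly covered domains sit to the right, with a median length of 4644 kb.

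Just below the limit of 50% were chr10:36900001-37458000 with ANKRD30A, at 47.8%, and chr4:11664001-13068000, at 45.7%, which holds no coding gene start. Just above it were chr7:103554001-104805000 with RELN, the secreted glycoprotein that guides neuronal migration, and ORC5, a subunit of the origin recognition complex, at 51.0%, and chr6:8271001-10071000 with SLC35B3, a transporter of the sulfate donor PAPS, at 52.2%. The lowest share above 0 was 1.93%, in chr3:75807001-87804000 with the axon guidance receptors ROBO2 and ROBO1.

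The longest domain of each class shows the range. Among domains without H3K9me3 it was chr7:108567001-127566000, 18999 kb from THAP5 and DNAJB9 to GRM8 and ZNF800, with 58 coding gene starts, 37 of them with H3K4me3, and LMNB1 over 99.3% of its length. Next came chr1:185463001-199737000 (14.3 Mb, HMCN1 and PRG4 to ATP6V1G3 and PTPRC) and chr7:78210001-91863000 (13.7 Mb, MAGI2 and GNAI1 to CDK14 and FZD1). The longest middle domain was chr12:70020001-92826000, 22.8 Mb from CNOT2 and KCNMB4 to BTG1 and PLEKHG7, of which 7.46% lay in H3K9me3. It was followed by chr11:88011001-107568000 (19.6 Mb, RAB38 and CTSC to CWF19L2 and ALKBH8, 40.7%) and chr13:53415001-72549000 (19.1 Mb, PRR20A and PRR20B to KLHL1 and DACH1, 28.0%). The longest high-class domains were chr1:68391001-88839000 (20.4 Mb, RPE65 and DEPDC1 to LMO4 and PKN2, 57.5%), chr1:95301001-108108000 (12.8 Mb, PTBP2 and DPYD to NTNG1 and VAV3, 62.1%) and chr21:14103001-25569000 (11.5 Mb, LIPI and RBM11 to TMPRSS15 and NCAM2, 60.4%). All 3 were near the lower limit of their class. The wholly covered domains were shorter, with a median of 670.5 kb and a maximum of 7.12 Mb. The authors' PML score per Mb had a median of 66.3 in the high class, 52.2 in the middle class and 50.2 without H3K9me3.

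The class shares of PML domains differed widely between chromosomes, although most chromosomes held more than 1 class. The high class made up 1.03% of PML domain length on chromosome 13 and 2.88% on chromosome 4, but 98.6% on chromosome 19 and 97.1% on chromosome 16, with a median of 58.7% over the 22 chromosomes that hold PML domains (none lay on X). The high class held more than 50% of the PML length on 12 chromosomes, domains without H3K9me3 on 4 and the middle class on 2. Chromosomes 16, 17, 19, 21 and 22 had no middle domain. Across the 22 chromosomes, the share in the high class and the chromosome's GC content had a Pearson r of 0.826 and a Spearman rho of 0.925, given as a description since the points share their libraries and their base composition; without the 2 chromosomes farthest from the median GC, 22 and 19, r was 0.827. The same order held among domains. Median GC content was 36.8% without H3K9me3, 37.3% in the middle class and 39.7% in the high class, and it was higher in the high class than in domains without H3K9me3 on 21 of 22 chromosomes. With the PML domains split by GC content into 4 groups of 105, the high class made up 13.3%, 42.9%, 68.6% and 94.3% of them from the lowest to the highest GC.

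**Figure D2:**
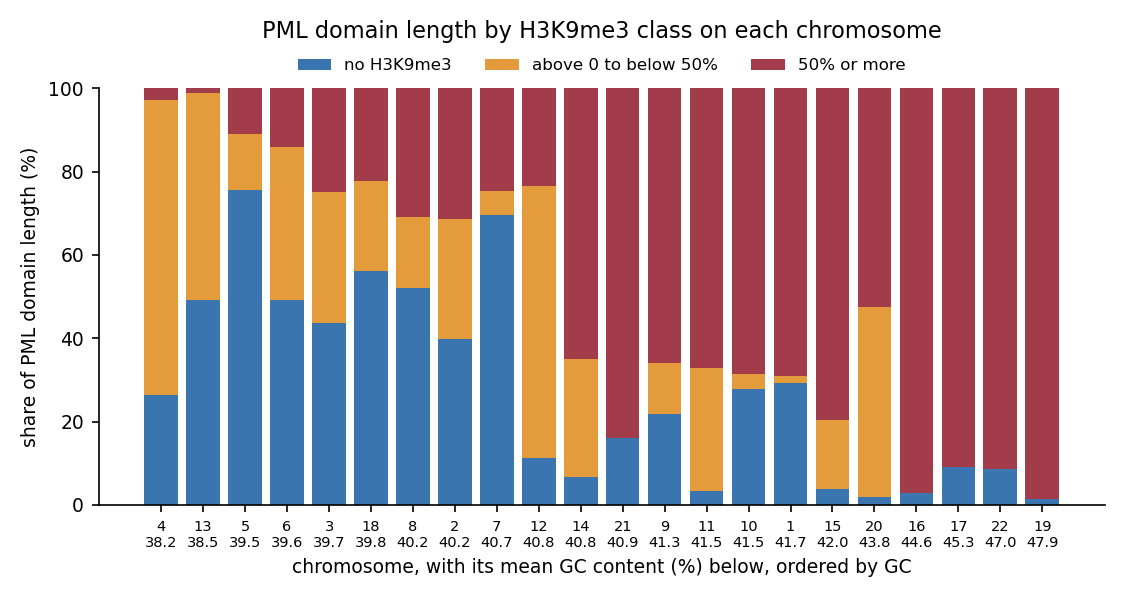
Bars give the share of PML domain length (%) in each H3K9me3 class on the 22 chromosomes with PML domains, ordered by the chromosome's mean GC content (%), printed under its number. The high class made up 2.88% on chromosome 4, which has the lowest GC, and 98.6% on chromosome 19, which has the highest. Its minimum was 1.03%, on chromosome 13. The rise was not steady, with 52.4% on chromosome 20.

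Of 398 pairs of neighbouring domains on a chromosome, 245 (61.6%) were of the same class, a share that also carries the uneven class shares of the chromosomes; 155 of these pairs were both high and 84 both without H3K9me3, while 92 pairs joined a high-class domain to one without H3K9me3. The midpoints lay a median of 39.7 Mb from the nearer chromosome end without H3K9me3, 40.5 Mb in the middle class and 26.7 Mb in the high class. Relative to the length of their chromosomes the classes differed little, with medians of 53.9%, 55.2% and 50.7% of the way from the end to the middle. High-class domains were nearer the end on 14 of 22 chromosomes. With PML domains of 36 to 40% GC only, the ratio of the median distances, high class over no H3K9me3, went from 0.673 to 1.00.

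Lamin B1 covered most of every class and the most of the high class. LMNB1 domains covered 94.9% of the high-class length, 89.7% of the middle class and 82.4% of the length without H3K9me3, against 34.3% of the genome. At least 50% of the domain lay in LMNB1 for 207 of 230 high-class domains (90.0%), 34 of 37 middle domains (91.9%) and 104 of 153 domains without H3K9me3 (68.0%), where the share over all PML domains was 82.1%. The remaining domains were mostly free of LMNB1: 47 without H3K9me3, 23 high-class and 1 middle domain had none. These were short, with medians of 549 kb without H3K9me3 and 495 kb in the high class. Within chromosomes, the share of length in LMNB1 was higher in the high class than without H3K9me3 on 18 of 22, with medians over chromosomes of 96.4% and 79.7%. The spread without H3K9me3 was wide (SD 33.1 points over 22 chromosomes, against 5.52 in the high class), and on chromosomes 15, 19 and 20, which have 5 such domains in all, LMNB1 covered none of them. The high class was above domains without H3K9me3 within each GC group too. From low to high GC, LMNB1 covered 86.5%, 76.8%, 57.9% and 26.1% of the length without H3K9me3 and 99.5%, 95.6%, 94.3% and 91.5% of the high class. The middle class stood at 96.2%, 83.5%, 81.0% and 92.4%. The highest GC group has 5 domains without H3K9me3 and 1 middle domain. PML borders lay within 50 kb of an LMNB1 border at 43.0% of 460 high-class borders, 32.4% of 74 middle borders and 28.1% of 306 borders without H3K9me3. They lay within 50 kb of an H3K9me3 border at 31.7% in the high class and 9.46% in the middle class. Such distances are coarse, since domain bounds come in steps of 9 kb (PML), 17 kb (LMNB1) and 23 kb (H3K9me3).

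**Figure D3:**
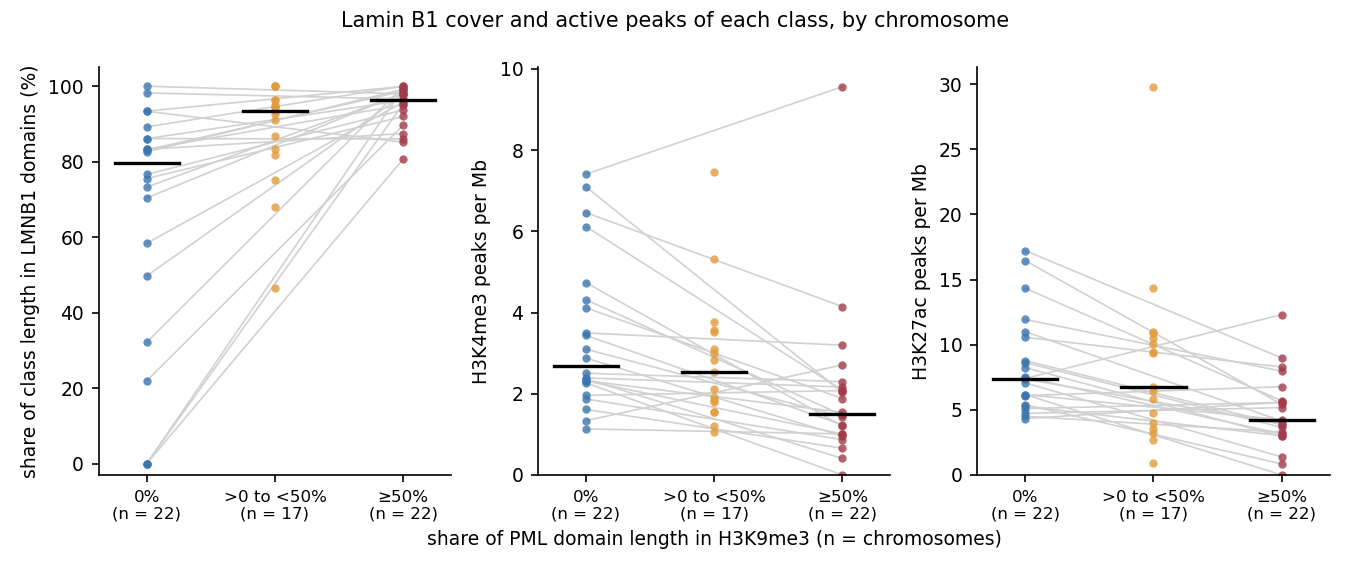
Points are chromosomes (n below each class) and give the share of class length in LMNB1 domains (%), H3K4me3 peaks per Mb and H3K27ac peaks per Mb; black bars are medians over chromosomes and grey lines join the no-H3K9me3 and high classes of a chromosome. LMNB1 is higher in the high class on 18 of 22 chromosomes, and H3K4me3 and H3K27ac are lower on 19 and 17.

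All 3 classes were poor in protein-coding genes, and the high class held large families of clustered genes. Coding genes started at 1.95 per Mb without H3K9me3 (619 genes), 2.12 in the middle class (481) and 3.55 in the high class (1512), against 6.86 in the genome, which puts 3.10%, 2.41% and 7.57% of all coding genes in these classes and 13.1% in PML domains. The high class had 1.82 times the density of domains without H3K9me3, but it was denser on 11 of 22 chromosomes and less dense on the other 11. Without chromosome 19 the ratio was 1.56, and without olfactory receptor, ZNF, keratin and keratin-associated genes 1.26. From low to high GC the 4 groups had 1.59, 2.53, 3.67 and 8.87 genes per Mb without H3K9me3 and 1.74, 2.95, 3.68 and 5.22 in the high class. The value of 8.87 rests on 5 domains with 15 genes. Genes of the high class were short, with a median locus of 21.1 kb, against 64.0 kb without H3K9me3, 67.03 kb in the middle class and 26.9 kb outside PML domains. Long noncoding RNA genes, at 3.39, 3.70 and 5.13 per Mb, and pseudogenes, at 2.96, 3.06 and 4.56 per Mb, followed the order of the coding genes. No coding gene started in 39 domains without H3K9me3, 3 middle domains and 45 high-class domains.

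The families fell into different classes, each family mostly as whole clusters, so that its members are not independent; how reads of near-identical copies were placed is not stated. Of 400 olfactory receptor genes, which encode odorant receptors of the nasal epithelium, 271 started in 17 high-class domains, 143 of them on chromosome 11 and 47 on chromosome 1 (OR10T2, OR10K2 and OR10K1 first), 29 in domains without H3K9me3 (OR2F2, OR2F1 and OR6B1 first) and 0 in middle domains. Of 508 ZNF genes, 171 started in the high class, 163 of them on chromosome 19, 9 without H3K9me3 and 2 in the middle class. The high class also held 22 of 55 keratin genes, all in 1 domain of chromosome 17, 67 of 94 keratin-associated protein genes, on chromosomes 17 and 21, and 17 of 22 CEACAM and PSG genes, cell adhesion and pregnancy glycoproteins of chromosome 19. The other classes held none of these 3 families. Domains without H3K9me3 held 15 of 24 bitter taste receptors, 14 of them on chromosome 12 (TAS2R7, TAS2R8 and TAS2R9 first), and 10 of 74 histone genes, all in 1 domain of chromosome 6 (H2AC1, H2BC1 and H1-1 first), 7 of which carried H3K4me3; neither family started in another class. The middle class held the matrix metalloproteinase cluster of chromosome 11 (MMP7, MMP20, MMP27, MMP8, MMP10, MMP1, MMP3, MMP12 and MMP13), enzymes that cleave extracellular matrix.

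**Figure D4:**
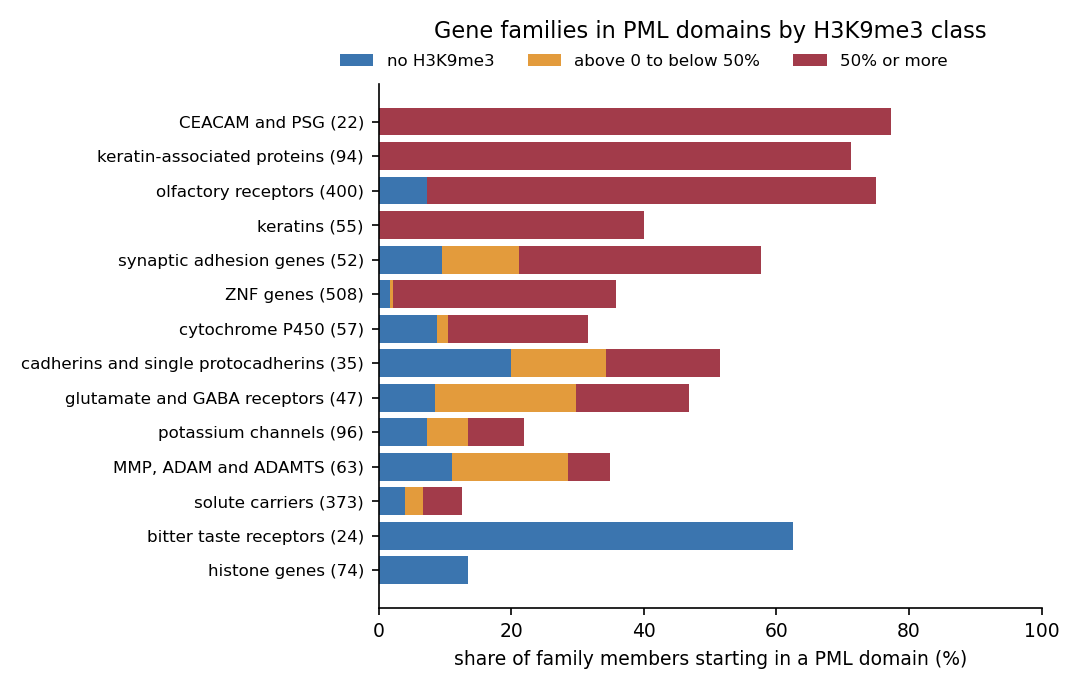
Bars give, for each family with 10 or more members starting in PML domains, the share of its members (%; number of members in brackets) that start in each class. Keratins, keratin-associated proteins and CEACAM and PSG genes lie in the high class alone, bitter taste receptors and histone genes in domains without H3K9me3 alone.

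Families of neuronal membrane proteins had members in every class, to be read against 3.10%, 2.41% and 7.57% of all coding genes in the no-H3K9me3, middle and high classes. Receptors for glutamate and GABA, the main excitatory and inhibitory transmitters of the brain, had 4, 10 and 8 of 47 members in the no-H3K9me3, middle and high classes (among them GABRG1, GABRA2 and GABRA4 in the middle class and GRM7, GRIA1 and GRIN3A in the high class). Synaptic adhesion genes had 5, 6 and 19 of 52 (among them SLITRK3, NLGN1 and SLITRK1 without H3K9me3 and NEGR1, LRRTM4 and LRRTM1 in the high class). Potassium channels had 7, 6 and 8 of 96, which in the high class (8.33%) is close to that background, and cadherins and single protocadherins 7, 5 and 6 of 35. No HOX, HLA, clustered protocadherin, UGT or type I interferon gene of 39, 19, 53, 22 and 17 started in a PML domain. Of all coding genes 13.1% do. These families sit in few clusters, and a count of 0 in the smaller ones is hard to tell from that share.

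Active marks were sparse in all classes and, over all domains, sparsest in the high class. The short domains without LMNB1 went the other way, as did H3K4me3 in domains of 500 to 1000 kb. H3K4me3 peaks numbered 763 without H3K9me3, 597 in the middle class and 939 in the high class, which is 2.40, 2.63 and 2.21 per Mb against 7.63 in the genome. H3K27ac peaks numbered 2188, 1725 and 2300, or 6.89, 7.59 and 5.41 per Mb against 14.5. Pooled, the H3K4me3 density of the high class was 0.919 of that without H3K9me3, and that of H3K27ac 0.785. Within chromosomes the difference was larger. H3K4me3 was lower in the high class than without H3K9me3 on 19 of 22 chromosomes, with medians of 1.51 and 2.69 per Mb, and H3K27ac on 17 of 22, with medians of 4.19 and 7.38. From low to high GC, the 4 groups had an H3K4me3 density of 2.13, 2.91, 3.50 and 8.27 per Mb without H3K9me3 and 1.56, 1.93, 2.05 and 3.03 in the high class. Domains were also split by length at 500, 1000, 2000 and 5000 kb. From short to long, the H3K4me3 density was 3.57, 3.12, 2.47, 1.94 and 2.39 without H3K9me3. In the high class it was 1.53, 3.37, 2.27, 1.83 and 2.18, so from 500 kb up the difference was small or reversed. H3K27ac density was lower in the high class in each length group. In domains without any LMNB1 the order was reversed: H3K4me3 peaks stood at 6.19 per Mb in the 23 high-class domains and at 3.14 in the 47 without H3K9me3, and H3K27ac peaks at 13.2 and 10.3. Of the 100 coding genes in those high-class domains 81 lay on chromosome 19 and 59 were ZNF genes. The densities without that chromosome were not computed, so a part of LMNB1 in this reversal was not tested. Where LMNB1 was present, H3K4me3 stood at 2.08 and 2.32 per Mb, and H3K27ac at 5.16 and 6.51. Within the high class, domains covered by 50% or more but not whole had 2.44 H3K4me3 peaks per Mb, and wholly covered ones 1.65. No H3K4me3 peak lay in 79 of 230 high-class domains (34.3%), 25 of 153 without H3K9me3 (16.3%) and 3 of 37 middle domains (8.11%), against 25.5% of all PML domains. The 114 wholly covered domains made up 60 of the 79. They were also shorter, and a short domain has less room for a peak. Where H3K4me3 peaks were called, they were as strong in the high class as elsewhere, with a median fold of 10.9 (quartiles 4.83 to 22.2), against 9.32 in the middle class, 8.22 without H3K9me3 and 10.4 outside PML domains.

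At promoters the high class had, over all domains, the lowest share with H3K4me3, and its 2 largest families stood at opposite ends. An H3K4me3 peak lay within 1 kb of the start of 511 of 1512 high-class genes (33.8%, interval 31.4 to 36.2), 286 of 481 middle genes (59.5%, 54.9 to 63.9) and 318 of 619 genes without H3K9me3 (51.4%, 47.4 to 55.4), against 61.8% of all coding genes. H3K27ac lay at 28.9%, 46.8% and 41.2%, against 50.8%. The share with H3K4me3 was lower in the high class than without H3K9me3 on 17 of the 20 chromosomes with genes in both. Among olfactory receptors of the high class, 1 of 271 carried H3K4me3; among its ZNF genes 141 of 171 did (82.5%), close to the 283 of 326 outside PML domains (86.8%). The chromosome 19 genes of the high class, most of them ZNF genes, stood at 57.8%, and without that chromosome the high class stood at 28.1%. The domains without any LMNB1 had the opposite order, with H3K4me3 at 67 of 100 high-class promoters and at 33 of 113 without H3K9me3 (29.2%), and H3K27ac at 62.0% and 30.1%. Of those 100 high-class genes 59 were ZNF genes, all on chromosome 19, and 54 of these were marked; of the 113 genes without H3K9me3, 29 were olfactory receptors, none of them marked. The other genes of these domains stood at 13 of 41 in the high class (31.7%) and 30 of 81 without H3K9me3 (37.0%). With olfactory receptor, ZNF, keratin and keratin-associated genes left out, the shares were 37.6% in the high class, 59.5% in the middle class and 53.4% without H3K9me3.

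Over all domains, the high class also had the lowest share among promoters of like CpG content. Promoters with 10 or more CG dinucleotides in the 250 bases before the start, as at CENPW and GRM7, made up 44.05% of high-class, 62.0% of middle and 54.4% of no-H3K9me3 promoters, against 70.3% of all coding promoters. Among these CpG-rich promoters 65.8% carried H3K4me3 in the high class (interval 62.0 to 69.4, n = 666), 82.9% in the middle class (78.1 to 87.0, n = 298) and 79.2% without H3K9me3 (74.5 to 83.4, n = 337), against 80.9% of all CpG-rich coding promoters. The high class was lower than domains without H3K9me3 on 14 of 17 chromosomes. Among CpG-rich starts inside LMNB1 domains the high class stood at 60.3% of 542, against 77.5% of 218 in the middle class and 77.7% of 264 without H3K9me3. Among those outside LMNB1 the high class was not the lowest, at 89.5% of 124 (82.7 to 94.3). There the middle class stood at 97.5% of 80 and domains without H3K9me3 at 84.9% of 73 (74.6 to 92.2). Without ZNF genes these shares outside LMNB1 were 88.2%, 97.5% and 84.3%. Among CpG-poor promoters, as at OR10T2 and TAS2R16, the shares were 8.63%, 21.3% and 18.1%.

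CpG-rich promoters inside H3K9me3 had a far lower share with H3K4me3 than those in uncovered stretches of the same classes. In the high class, 242 of 449 CpG-rich promoters that start inside H3K9me3 carried H3K4me3 (53.9%, 49.2 to 58.6), against 196 of 217 that start in uncovered stretches of the same class (90.3%, 85.6 to 93.9). In the middle class the numbers were 15 of 31 inside (48.4%, 30.2 to 66.9) and 232 of 267 outside (86.9%, 82.2 to 90.7). With both classes joined, the share was lower inside than outside H3K9me3 on all 22 chromosomes, with medians of 44.4% and 88.2%. ZNF genes stood apart inside H3K9me3, at 138 of 168 of any CpG content (82.1%) and at 112 of 135 with CpG-rich promoters. Without ZNF genes the CpG-rich promoters of the high class stood at 130 of 314 inside (41.4%, 35.9 to 47.1) and 193 of 214 outside (90.2%, 85.4 to 93.8). For H3K27ac these 2 shares were 27.7% and 80.8%, against 65.7% of all CpG-rich coding promoters. The size of the contrast differed with LMNB1. Among CpG-rich, non-ZNF promoters of the high class that start inside LMNB1 domains, 39.7% of 295 were marked inside H3K9me3 and 88.5% of 165 outside it. Among those that start outside LMNB1, 13 of 19 were marked inside H3K9me3 (68.4%, 43.4 to 87.4) and 47 of 49 outside it (95.9%, 86.0 to 99.5). With ZNF genes kept, these last shares were 85.1% of 74 and 96.0% of 50. The difference between the contrasts was not tested. Outside PML domains the CpG-rich, non-ZNF shares were 35.8% of 380 inside and 82.9% of 12070 outside H3K9me3. By distance to the nearest H3K9me3 border, non-ZNF CpG-rich promoters of the middle and high classes were marked in 20 of 23 cases within 50 kb inside the border, and in 33.3%, 39.6% and 39.8% at 50 to 200, 200 to 500 and over 500 kb inside. Outside they stood at 94.4%, 89.6%, 84.1% and 87.4% at the same distances.

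**Figure D5:**
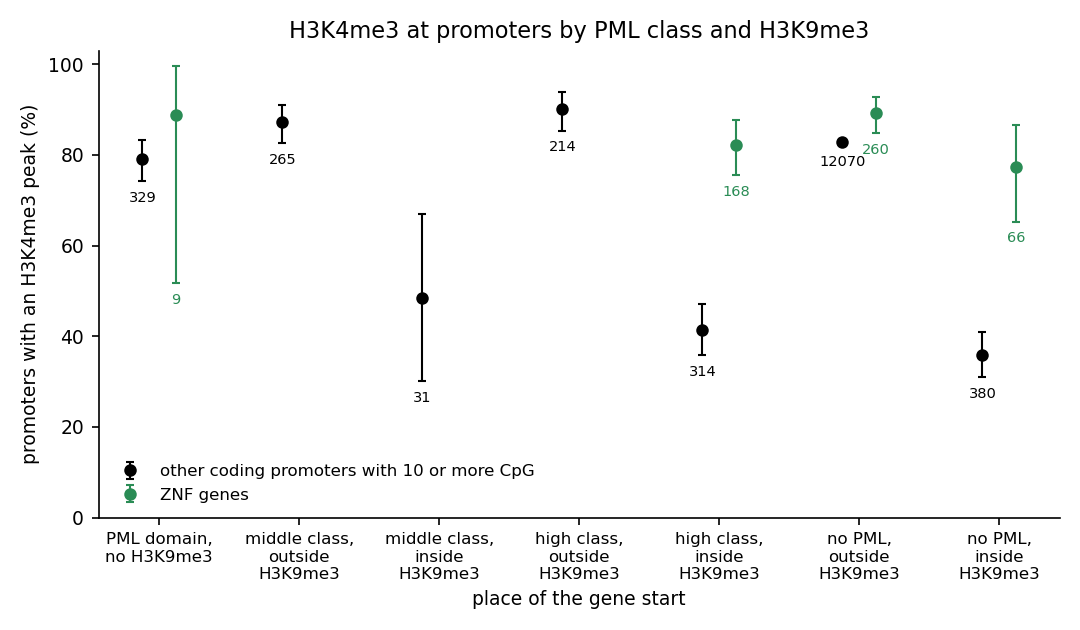
Points give the share of coding promoters with an H3K4me3 peak (%) by the place of the gene start. ZNF genes of any CpG content (groups of 5 or more) are set beside all other promoters with 10 or more CG dinucleotides. Bars are exact 95% intervals and numbers are promoters. Shares outside H3K9me3 run from 79.0 to 90.2% for the other promoters and those inside from 35.8 to 48.4%, while ZNF genes inside H3K9me3 in the high class stand at 82.1%.

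Which CpG-rich promoters were unmarked inside H3K9me3 differed by family. Of the 480 that start inside H3K9me3 in middle and high domains, 257 carried H3K4me3. None did among 8 glutamate and GABA receptors (GRM7, GRIN3A and GRM5 first), 6 potassium channels (KCNA2, KCNA3 and KCNH8 first) and 6 solute carriers (SLC5A7, SLC5A8 and SLC35F4 first). Among 10 synaptic adhesion genes, NCAM2 alone did. Among 135 ZNF genes 112 did, and the 23 without a peak included ZNF177, ZNF560 and ZNF257. Of 5 cadherins, PCDH17, CDH11 and CDH4 were marked and CDH8 and CDH13 were not. Strong promoter peaks were also found inside H3K9me3. Of the 6 high-class genes with the highest H3K4me3 fold 5 started there, where 293 of all 511 marked promoters of the class (57.3%) and 86.0% of its length lay, namely SVIP (63.1), TMEM260, an O-mannosyltransferase (58.9), ORC5 (58.2), ZNF317 (55.3) and COX10, which farnesylates heme for cytochrome c oxidase (55.2). COPS2, a subunit of the COP9 signalosome, at 55.3, started outside it. In domains without H3K9me3 the highest folds were at PCNX4 (71.1), ZNF215 (60.8), CENPW (54.2), BLZF1 and NME7, which share 1 peak between divergent starts (52.6), and WASL, an activator of actin branching (52.1). In the middle class BBS10 (76.1), FAM98B (66.9), the glutamine transporter SLC38A1 (55.2), TMX3 (55.03), the splicing factor SRSF8 (51.8) and CWF19L2 (51.5) led, and all 6 started outside H3K9me3, as did 271 of all 286 marked promoters of the class (94.8%). For H3K27ac the highest folds were at PFDN4, a prefoldin subunit (84.9), FBXO33 (69.1) and SMARCE1, a subunit of BAF chromatin remodelers (45.3), in the high class. The middle class was led by OSBPL8 (52.9), HNMT (37.8) and DIAPH3 (32.2), and domains without H3K9me3 by PCNX4 (45.6), STAMBPL1 (41.1) and SMIM10L1 (37.4).

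The middle domains compare covered and uncovered chromatin within the same PML domain. Their 50.5 Mb inside H3K9me3 held 1.01 coding gene starts, 0.971 H3K4me3 peaks and 2.85 H3K27ac peaks per Mb. Their 176.7 Mb outside it held 2.43, 3.10 and 8.95. H3K4me3 peaks were sparser inside in 30 of 37 domains, denser in 4 and equal in 3, and H3K27ac peaks were sparser in 28. The uncovered stretches of the middle class thus had more H3K4me3 peaks per Mb than domains without H3K9me3, at 2.40. LMNB1 covered 96.3% of the inside and 87.9% of the outside, with a higher share inside in 23 domains, a lower one in 1 and an equal one in 13. GC content was higher inside in 31 of 37 (medians 37.9% and 36.7%). In the high class, the 366.1 Mb inside held 1.598 H3K4me3 peaks per Mb and the 59.4 Mb outside 5.96, and the density was lower inside in 69 of the 116 domains that have both, higher in 28 and equal in 19.

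Most genes of the programs listed for this cell line started outside PML domains: 13 of 20 metastasis genes, 10 of 15 transition genes, 7 of 10 basal, 8 of 10 luminal, 15 of 19 interferon response and 12 of 14 inflammatory genes. Those described here are the rest, and 13.1% of all coding genes start in PML domains. The lists were compiled with earlier results of these data known. The longest domain without H3K9me3 held CAV2, CAV1 and MET, which encode caveolins and the hepatocyte growth factor receptor, with H3K4me3 folds of 22.1, 25.7 and 23.1. Among genes tied to metastasis of this line, PTGS2, the prostaglandin synthase COX-2, and ADAMTS1, a secreted protease, started without H3K9me3 at folds of 26.3 and 24.9. KYNU, an enzyme of tryptophan breakdown, and the collagenase MMP1 started in middle domains, KYNU at 4.37 and MMP1 with no peak. Of VCAM1, TNC and MMP2 in the high class, only the matrix protein TNC had a peak, at 13.6, and it started inside H3K9me3. Among transition genes, the transcription factors TWIST1 and PRRX1 and the cadherin CDH2 started without H3K9me3 and had no peak of either mark. ZEB2, a repressor of E-cadherin, started in a middle domain outside H3K9me3 at 12.7, and CDH11, a mesenchymal cadherin, inside H3K9me3 in the high class at 30.3. The interferon-induced genes IFI44L and IFI44 started inside H3K9me3 at 11.5 and 10.3, the viral RNA sensor IFIH1 without H3K9me3 at 29.6, and TRIM22 in the high class with no peak. The luminal factor FOXA1 started inside H3K9me3 with an H3K4me3 fold of 8.57 and no H3K27ac peak, and PGR, the progesterone receptor, in a middle domain with neither. The chemokines CCL2 and CCL5 started inside H3K9me3 with no peak, and of the markers of other cell types PTPRC, LUM and DCN had none. No gene of the PML body, lamina, H3K9 writer and HP1 or housekeeping lists, 12, 13, 12 and 15 genes, started in a PML domain, which for lists of this size is close to the share of 13.1%.

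A larger share of the H3K9me3 of the high class than of the middle class was, over all domains, listed again in PML knockdown cells. This order did not hold within most GC groups. Of control H3K9me3 inside PML domains, 35.1% of the high-class length and 7.92% of the middle-class length also lay in knockdown H3K9me3 domains, and the high class was above the middle class on 13 of 17 chromosomes. Wholly covered domains kept 50.4% and the other high-class domains 27.1%. In the 4 GC groups, from low to high, the high class kept 0, 7.48, 26.3 and 81.6%. The middle class kept 1.99, 9.49, 15.2 and 93.7%, the last in 1 domain. The middle class was thus above the high class in every GC group but that with 26.3%. The 3 longest high-class domains kept 0. With PML domains of 36 to 40% GC only, the difference between the classes was 4.25 points in place of 27.2. The knockdown list is shorter (281 domains) and on a coarser grid of 35 kb, and a loss of the mark and a weaker set of calls cannot be told apart here. In domains that had no control H3K9me3, knockdown H3K9me3 covered 0.0504% of the length.

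Seen from the H3K9me3 list, 257 of its 430 domains lay in PML to 50% or more, 43 to a lesser extent and 130 not at all. Those in PML had a median GC content of 39.3% and LMNB1 over 92.3% of their length. Those without PML had 43.8% and 28.3%, and the partly covered ones 42.7% and 57.3%. The knockdown list again covered 31.5% of the length of those in PML, 73.5% of the partly covered ones and 75.4% of those without PML.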

How the data were processed

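The submitters' processing notes name the build hg38 and, with no role for each, MACS2 2.2.7.1, deepTools, Picard 1.104 and BWA 0.7.12-r1039. Each domain carries a deposited score whose unit is not stated, and no source used here says whether replicates were pooled for the domain lists. Each deposited peak carries a fold enrichment (a ratio) and the −log10 of its q-value, and the deposited peak names show that replicates 1 and 2 were joined. Lists marked ct were read as control, which is an assumption. H3K27me3, input and the knockdown peak lists were not used here.

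Shares were computed in 1 kb bins on chromosomes 1 to 22 and X. PML, H3K9me3 and LMNB1 control domains all end within the hg38 chromosomes. The gene set (GENCODE release 44) had 19970 protein-coding genes, each placed by its canonical start. A promoter carried a mark when a control peak overlapped 1 kb on either side of the start by 1 bp. Peaks were counted by their midpoints. CpG-rich means 10 or more CG dinucleotides, both strands alike, in the 250 bases before the start. Named genes were the first and last gene starts of the longest and highest-scoring domains per class, the highest promoter folds per class, members of the listed sets, up to 3 members per family in genome order, and genes of domains nearest the limit of 50%; domains of chromosome 8 were counted and not named, and some family members are not reported here.

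Calculations ran in Python 3.11.15 with scipy 1.17.1, pandas 2.3.3, matplotlib 3.10.9 and numpy 2.4.6. The calculations were checked on simulated lists with known shares, and bedtools 2.31.1 gave the same H3K9me3 and LMNB1 share, to 0.01 points, for 420 of 420 domains. The members, gene lists and comparisons were chosen with earlier results of these data known, and the comparisons by CpG content, inside against outside H3K9me3 in the high class, by border distance and by LMNB1 were added after values were seen.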

Additional observations from a re-analysis of the deposited data

How the results depend on the processing

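Of 111 alternative values for 13 results, 108 were counted as unchanged. For 8 of these, on the number of high-class domains, the ratio to the reported number stayed within a fixed limit. The others kept their direction and moved by less than the SD over chromosomes. That SD is wide for some results, so this is a weak criterion: the ratio of gene densities, 1.82, ran from 1.14 to 2.46, the LMNB1 difference, 12.5 points, from 11.0 to 21.4, the H3K4me3 density ratio, 0.919, from 0.669 to 0.976, the H3K27ac ratio, 0.785, from 0.639 to 0.834, the promoter difference, -17.6 points, from -25.2 to -14.4, and the CpG-rich difference inside minus outside H3K9me3, -34.9 points, from -48.2 (without chromosome 19) to -33.9. The difference in H3K9me3 kept, 27.2 points, ran from 4.25 to 35.7. With PML domains of 36 to 40% GC only, an alternative added after the data were seen, the number of high-class domains went from 230 to 120 because fewer domains entered, and the ratio of distances to the chromosome end from 0.673 to 1.00. With a limit of 70% in place of 50%, the ratio of median lengths, high class over no H3K9me3, went from 1.02 to 0.929; the cause was not tested. Removing assembly gaps or treating overlaps of up to 46 kb as none could change nothing, since no PML domain held a gap and no overlap was that small. Leaving out chromosome 19 could likewise not change the comparisons within middle domains, since that chromosome has no middle domain. These alternatives are counted among the 108 but tested nothing. No paired analysis was possible because each target and condition had 1 list with no value per library, and for the same reason no replicate could be left out. Depth is unknown, and the grids of 9 to 23 kb limit shares of short domains.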
